A study of Sus scrofa with 12 samples.

Results

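Bile acid synthesis, conjugation, transport and feedback were followed in the liver through 10 genes, namely CYP7A1, CYP8B1, CYP7B1, BAAT, SLC10A1, ABCB11, ABCC2, NR1H4, NR0B2 and FGFR4. They were taken by symbol and function from the 31694 genes listed for each mRNA library, by a rule that uses no measured value. The choice was made with earlier results of these data known. Of the 10 genes, 8 were found under their own symbol. NR0B2 was found through its NCBI gene number as LOC100526226, which RefSeq of assembly Sscrofa11.1 names NR0B2. CYP8B1 matched no row by symbol or number and is not analysed here. Liver mRNA was sequenced from 3 Jinhua (JH) and 3 Landrace (LD) pigs, all uncastrated males of 70 days of age, with 1 library per pig (JH1 to JH3 and LD1 to LD3). JH is a local breed of China, and LD is a commercial breed kept for lean meat. The groups differ by breed alone in the labels, which name no treatment. Feeding before sampling, the time of day and the litters are not given in the sources used here.

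Bile acids are made from cholesterol in hepatocytes. The classic route starts with cholesterol 7-alpha-hydroxylase (CYP7A1), its rate-limiting enzyme, and the alternative route runs through CYP27A1 and the oxysterol 7-alpha-hydroxylase CYP7B1. BAAT joins the finished acids to glycine or taurine. SLC10A1 (NTCP) takes bile acids up from portal blood, ABCB11 (BSEP) pumps bile salts into the canaliculus, and ABCC2 (MRP2) exports conjugated anions. Bile acids bind the nuclear receptor FXR (NR1H4), which induces the repressor SHP (NR0B2), and SHP lowers CYP7A1 transcription. A second brake comes from the gut hormone FGF19, which acts on the liver through FGFR4 and its co-receptor beta-klotho (KLB).

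Expression was deposited as RPKM, the reads of a gene scaled by its length and by the reads of the library. Whole reads could be recovered from these values, and the totals behind them were between 5744909 reads in JH1 and 7914516 in LD3. The ribosomal RNA gene RN18S ranged from 1570 RPKM in JH2 to 62257 RPKM in JH3. Breeds were compared with limma on log2(RPKM + 0.1) over 12993 genes, namely those that reached 0.5 RPKM in 3 or more libraries. The threshold was an adjusted p under 0.05 (Benjamini-Hochberg) together with a log2 fold change, JH over LD, beyond 1 in either direction. The pseudocount draws the fold changes of low genes toward 0. Each sample is 1 pig, and with 3 pigs against 3 the smallest p of an exact two-sided permutation test is 0.1. ALB, the albumin gene that defines hepatocytes, was between 27533 and 33599 RPKM in JH and between 37742 and 53893 RPKM in LD, so the libraries carried the label's tissue. A listed 0 does not show that a gene is silent, since APOB, a gene that liver expresses at a high level, was listed at 0 in all 6 libraries.

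NR0B2, the repressor of the pathway, was higher in JH pigs by 3.53-fold and was the only gene of the 10 that passed the threshold. CYP7A1, the entry enzyme, had all JH values below all LD values, with a log2 fold change of -1.45 that did not pass the adjusted limit. CYP7B1 and FGFR4 were likewise lower in every JH pig without passing. The receptor gene NR1H4 and the 3 transporter genes had overlapping values in the breeds. Of the 9 genes found, 8 entered the test and BAAT did not reach the limit on low values. The threshold was passed by 1 of the 8, against 2.39% of all tested genes (1.02% higher and 1.36% lower in JH). In limma, 4 of the 8 had an unadjusted p under 0.05, against 17.9% of all tested genes. All 3 JH values lay apart from all 3 LD values in 4 of the 8, against 23.4% of all tested genes. The median log2 fold change of the 8 was -0.47, and that of all tested genes was 0.04.

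**Figure D1:**
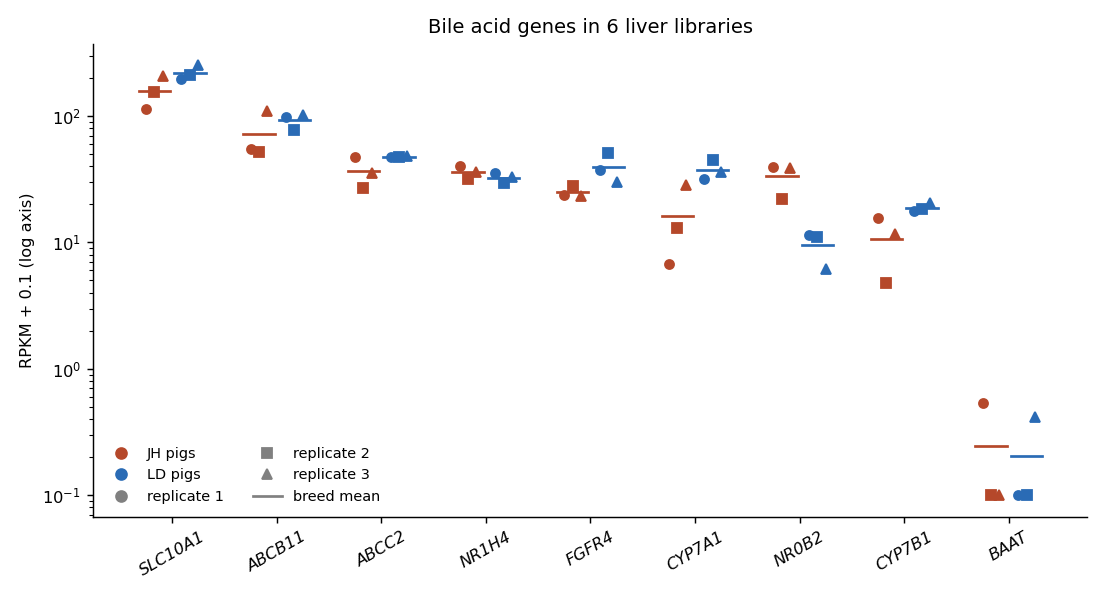
RPKM + 0.1 on a log axis for the 9 bile acid genes found, ordered by their mean over the 6 libraries, with a point for each JH (red) and LD (blue) pig, a symbol for each replicate number and a line for each breed mean. NR0B2 lies higher in all 3 JH pigs, CYP7A1, CYP7B1 and FGFR4 lie lower in all 3 JH pigs, and BAAT stays below 0.5 RPKM.

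Levels per length differed widely within the pathway. Over the 6 libraries the mean was highest for SLC10A1 with 189 RPKM, followed by ABCB11 with 82.2 RPKM and ABCC2 with 41.9 RPKM. NR1H4 with 34.2, FGFR4 with 32.2, CYP7A1 with 26.8, NR0B2 with 21.4 and CYP7B1 with 14.6 RPKM came next. This order pools the breeds and held in neither. In JH the mean of NR0B2 (33.4 RPKM) was above those of FGFR4 (24.9) and CYP7A1 (16.0), and in LD NR0B2 (9.44 RPKM) was the lowest of the 8. Neighbours from ABCC2 to CYP7B1 in this order overlapped in their values across the 6 libraries, and the highest ABCC2 value of 47.8 RPKM was below the lowest ABCB11 value of 52.3 RPKM. SLC10A1 stood above ABCB11 in every library, since the lowest SLC10A1 value was 113 RPKM and the highest ABCB11 value was 109 RPKM.

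In the synthesis arm, CYP7A1 was at 6.68 RPKM in JH1, 12.9 in JH2 and 28.5 in JH3. In LD1, LD2 and LD3 it was at 31.5, 44.8 and 36.2 RPKM. The JH pigs were all below the LD pigs, but they spread from far below to close beneath them. These values rest on 157, 409 and 902 recovered reads in JH and on 915, 1448 and 1173 in LD. The JH mean was 16.0 ± 11.2 RPKM (SD, n = 3), and the LD mean was 37.5 ± 6.76 RPKM (SD, n = 3). The log2 fold change of CYP7A1 was -1.45 (95% interval -2.49 to -0.42), and its adjusted p of 0.147 from limma missed the limit. The difference depended on single JH pigs. Without JH1 its log2 fold change was -0.95, and without JH3 it was -1.99 with an adjusted p of 0.0236 from limma, which passes.

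CYP7B1 was at 15.4, 4.71 and 11.5 RPKM in JH1, JH2 and JH3 and at 17.5, 18.4 and 20.4 RPKM in LD1, LD2 and LD3. The LD pigs lay close together and above all JH pigs, among which JH2 was the lowest. A log2 fold change of -0.98 (95% interval -1.88 to -0.08) did not pass (limma, adjusted p = 0.242).

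BAAT was listed at 0.435 RPKM in JH1, at 0.316 RPKM in LD3 and at 0 in the other 4 libraries. With the smallest gene length that gives whole reads, 400 bases, each value above 0 is 1 read. The breeds were not compared for BAAT. As for a listed 0, values this low do not show that the liver expresses little BAAT.

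Among the transporters, SLC10A1 was at 113, 154 and 207 RPKM in JH1, JH2 and JH3 and at 195, 211 and 251 RPKM in LD1, LD2 and LD3. JH3 lay within the range of the LD pigs, and the other JH pigs lay below it. The log2 fold change was -0.51 (95% interval -1.13 to 0.12, limma adjusted p = 0.382). ABCB11 was at 54.6, 52.3 and 109 RPKM in the JH pigs and at 98.5, 77.4 and 101 RPKM in the LD pigs. JH3 was the highest of all 6 libraries, while JH1 and JH2 were the lowest. Its log2 fold change was -0.43 (95% interval -1.15 to 0.29, limma adjusted p = 0.518). ABCC2 was at 47.5, 26.6 and 35.1 RPKM in the JH pigs and at 46.9, 47.6 and 47.8 RPKM in the LD pigs. JH1 was level with the LD pigs and JH2 was the lowest. For ABCC2 the log2 fold change was -0.42 (95% interval -1.02 to 0.17, limma adjusted p = 0.447). The intervals of the 3 transporter genes still include a fall in JH by 1 on the log2 scale, so these data do not show that the breeds are alike.

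In the feedback arm, NR0B2 was at 39.2 RPKM in JH1, 22.2 in JH2 and 38.8 in JH3. LD1, LD2 and LD3 had 11.3, 10.9 and 6.04 RPKM. Every JH pig was above every LD pig, and the lowest JH value was 22.2 against a highest LD value of 11.3 RPKM. The recovered reads were 269, 205 and 358 in JH and 96, 103 and 57 in LD. The mean of the JH pigs was 33.4 ± 9.74 RPKM (SD, n = 3), that of the LD pigs 9.44 ± 2.95 RPKM (SD, n = 3). NR0B2 thus rose in JH, at a log2 fold change of 1.82 (95% interval 1.06 to 2.58, limma adjusted p = 0.0336). Fits that left out 1 library gave 1.53 to 2.09. The call was kept without JH2 and lost without JH1, JH3, LD1, LD2 or LD3, with adjusted p between 0.0524 and 0.0880 from limma.

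NR1H4, which encodes the bile acid receptor FXR, was at 40.0, 31.8 and 36.0 RPKM in JH1, JH2 and JH3 and at 35.3, 29.4 and 32.7 RPKM in LD1, LD2 and LD3. The breeds overlapped. Its log2 fold change was 0.14 (95% interval -0.37 to 0.65, limma adjusted p = 0.782), and under quantile normalization it was -0.01.

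FGFR4, the liver receptor of FGF19, was at 23.8, 27.8 and 23.2 RPKM in the JH pigs and at 37.4, 51.3 and 29.9 RPKM in the LD pigs. The JH pigs lay close together and below all LD pigs. Its log2 fold change of -0.63 (95% interval -1.23 to -0.04) did not pass (limma, adjusted p = 0.253).

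**Figure D2:**
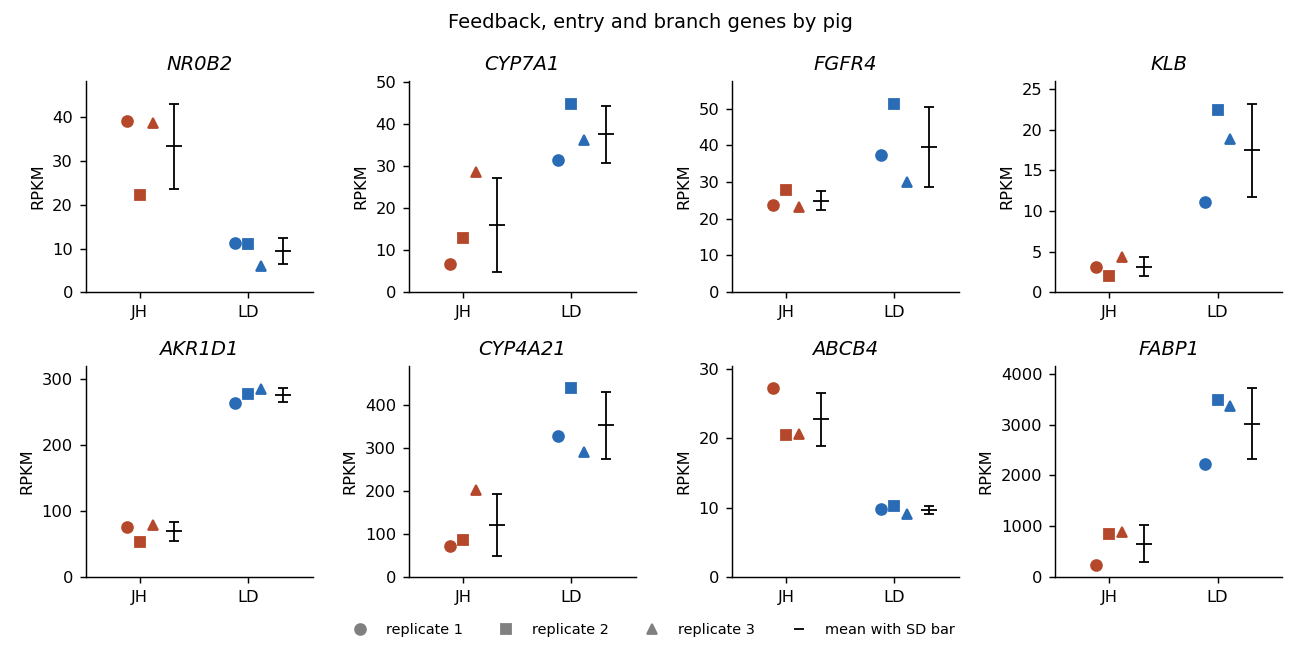
RPKM from 0 on linear axes for 8 genes of the feedback, entry, branch and biliary lipid steps in the 3 JH (red) and 3 LD (blue) pigs, with the breed mean and an SD bar beside the points. NR0B2 and ABCB4 are higher in every JH pig, and CYP7A1, FGFR4, KLB, AKR1D1, CYP4A21 and FABP1 are lower in every JH pig.

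Further genes of the pathway were taken from 3 lists set by function, with 60 symbols, of which 53 were found and 43 were tested. These lists were also chosen with earlier results of these data known, so the shares that follow are a description. The threshold was passed by 4 of the 43, against 2.39% of all tested genes. ABCB4 was higher in JH, and AKR1D1, FABP1 and KLB were lower. Over the 43 the median log2 fold change was -0.01. All 3 JH values lay below all 3 LD values in 9 of the 43 and above them in 4 (ACOX2, SCP2, ABCB4 and NR1I2), against 12.5% and 10.8% of all tested genes. Of the 10 found but not tested, 6 were listed at 0 in all libraries, namely SLC27A5, ATP8B1, SLC51B, SLC10A5, FGF19 and GPBAR1.

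KLB encodes the co-receptor that FGFR4 needs to respond to FGF19. It was at 3.12, 1.95 and 4.35 RPKM in JH1, JH2 and JH3 and at 11.2, 22.4 and 18.9 RPKM in LD1, LD2 and LD3. No JH pig came near the LD pigs, whose lowest value was 11.2 RPKM. KLB fell in JH, at a log2 fold change of -2.45 (95% interval -3.27 to -1.63, limma adjusted p = 0.0125), or 5.47-fold. The call was lost without LD2 (limma, adjusted p = 0.0531) and kept in the other fits that left out 1 library. FGF19 itself, which the gut produces, was listed at 0. For each unit of FGFR4, KLB stood at 0.131, 0.0700 and 0.188 in the JH pigs and at 0.299, 0.436 and 0.632 in the LD pigs. This ratio of RPKM values was chosen after the values were seen and was not tested.

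Of the 17 genes of feedback and transcriptional control tested, KLB alone passed the threshold, and the median log2 fold change was 0.07. NR5A2 (LRH-1), which activates CYP7A1 and is a partner of SHP, had a log2 fold change of -0.24 (limma, adjusted p = 0.634). HNF4A, a hepatocyte factor that acts on the same promoters, was at 0.22 (limma, adjusted p = 0.682). DIO1, which activates thyroid hormone, and the liver transcription factor gene FOXA2 followed KLB in size with log2 fold changes of -0.82 and 0.59 (limma, adjusted p = 0.222 and 0.494). The FOXA2 value rests on JH1, without which it was 0.11. RXRA, the partner of FXR, matched no row and is not analysed here.

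Among the other genes of synthesis and conjugation, AKR1D1 was the only one of 14 tested that passed. It encodes the 5-beta-reductase that shapes the sterol ring of both routes. AKR1D1 was at 76.2, 52.8 and 78.8 RPKM in JH1, JH2 and JH3 and at 264, 276 and 285 RPKM in LD1, LD2 and LD3. The pigs of each breed lay close together, and the breeds were far apart. AKR1D1 fell by 2.01 on the log2 scale in JH (95% interval -2.56 to -1.46, limma adjusted p = 0.00578), or 4.02-fold, and passed in all 6 of the fits with a library left out. HSD3B7, whose enzyme acts earlier on the same ring, had a log2 fold change of 0.41 (limma, adjusted p = 0.481) with overlapping values. The RPKM of AKR1D1 was 0.571, 0.412 and 0.802 of that of HSD3B7 in the JH pigs and 2.60, 2.53 and 4.40 times that in the LD pigs, a ratio chosen after the values were seen and not tested.

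CYP4A21 makes the 6-alpha-hydroxylated hyocholic acid that is typical of pig bile. Its values were 70.8, 86.4 and 203 RPKM in JH1, JH2 and JH3 and 328, 439 and 290 RPKM in LD1, LD2 and LD3. All JH pigs were below all LD pigs, and JH3 was the nearest to them, as for CYP7A1. A log2 fold change of -1.69 (95% interval -2.57 to -0.81) fell short of the adjusted limit (limma, adjusted p = 0.0614). CYP4A21 passed without JH3, where its log2 fold change was -2.15 (limma, adjusted p = 0.00818), and in the test on recovered reads (adjusted p = 0.0281 from limma's voom). Its close relative CYP4A24 had a log2 fold change of -1.07 (limma, adjusted p = 0.225), and reads of these similar genes could have been split between them, so both values are uncertain. Per unit of CYP7A1, CYP4A21 stood at 10.6, 6.70 and 7.13 in the JH pigs and at 10.4, 9.78 and 8.01 in the LD pigs. The breeds overlapped in this ratio, which was chosen after the values were seen.

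The remaining synthesis genes went both ways. CYP27A1, which opens the alternative route and oxidises the sterol side chain, was lower in every JH pig with a log2 fold change of -0.38 (limma, adjusted p = 0.447). The peroxisomal enzymes of side chain shortening ACOX2 and SCP2 were higher in every JH pig, with log2 fold changes of 0.93 and 0.86 (limma, adjusted p = 0.142 and 0.18). These were named because their values did not overlap, after they had been seen. SLC27A5, which activates bile acids for conjugation, was found by its gene number and listed at 0. CYP46A1 matched no row.

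In transport, ABCB4 (MDR3), the floppase that brings phosphatidylcholine into bile, was at 27.2, 20.4 and 20.6 RPKM in JH1, JH2 and JH3 and at 9.77, 10.21 and 9.09 RPKM in LD1, LD2 and LD3. The LD pigs were nearly level, and every JH pig was above them. ABCB4 rose with a log2 fold change of 1.21 (95% interval 0.68 to 1.74, limma adjusted p = 0.0364), or 2.31-fold. In the fits that left out 1 library its log2 fold change stayed between 1.07 and 1.28. The call was kept without JH3 and lost without JH1, JH2, LD1, LD2 or LD3, with adjusted p between 0.0817 and 0.126 from limma. Set against the bile salt pump, the RPKM of ABCB4 was 0.497, 0.390 and 0.188 of that of ABCB11 in the JH pigs and 0.0992, 0.132 and 0.0899 in the LD pigs, a ratio chosen after the values were seen and not tested.

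FABP1 encodes the liver fatty acid binding protein, which also binds bile acids in the cytosol. It was at 237, 847 and 889 RPKM in JH1, JH2 and JH3 and at 2224, 3482 and 3364 RPKM in LD1, LD2 and LD3. JH1 was the lowest by far, and all JH pigs were below all LD pigs. FABP1 fell by 2.40 on the log2 scale in JH (95% interval -3.49 to -1.30, limma adjusted p = 0.0416), and by 1.77 without JH1. The call was lost without JH2, LD1, LD2 or LD3 (adjusted p between 0.0577 and 0.141 from limma), with a pseudocount of 0.01 (adjusted p = 0.053), with no filter on low values (adjusted p = 0.0903) and with median scaling (adjusted p = 0.0527).

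The sterol exporter genes ABCG5 and ABCG8, whose products form 1 pump for cholesterol into bile, had log2 fold changes of -1.05 and -0.91 (limma, adjusted p = 0.13 and 0.196). Both were lower in every JH pig. The uptake carrier gene SLCO2B1 and the basolateral export gene ABCC3 were lower in every JH pig as well, with log2 fold changes of -0.78 and -0.72 (limma, adjusted p = 0.139 and 0.192). Of the 12 transport genes tested, 2 passed the threshold, against 2.39% of all tested genes. A log2 fold change below 0 was found in 8 of the 12, against 47.1% of all tested genes, and the median was -0.14.

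**Figure D3:**
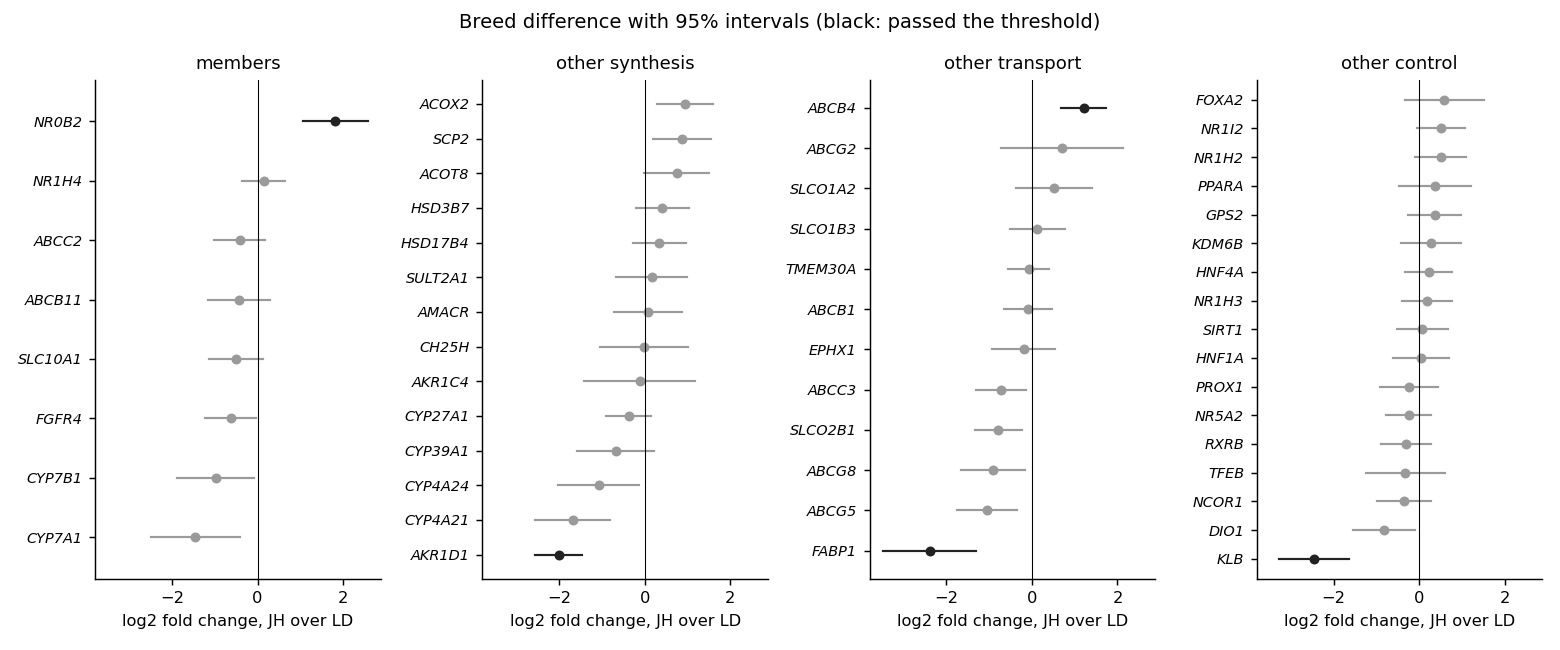
Log2 fold change of JH over LD with its 95% interval from limma for the 8 tested members and the 43 tested genes of the 3 further lists, each gene on its own line. The genes in black passed the threshold, namely NR0B2 and ABCB4 above 0 and AKR1D1, FABP1 and KLB below 0.

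The order of NR0B2 and CYP7A1 differed between the breeds. NR0B2 stood at 5.88, 1.72 and 1.36 times the RPKM of CYP7A1 in JH1, JH2 and JH3, and at 0.360, 0.244 and 0.167 times in LD1, LD2 and LD3. The repressor was above the enzyme in every JH pig and below it in every LD pig. This pair was chosen after the values were seen, so the ratio is a description with no test. Within the JH breed, JH1 and JH3 had nearly the same NR0B2 level, but the lowest and the highest CYP7A1 level.

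Ratios within a library do not move with its scaling. The log2 ratio of CYP7A1 to CYP7B1 was -1.19, 1.43 and 1.30 in JH1, JH2 and JH3 and 0.84, 1.28 and 0.83 in LD1, LD2 and LD3. Only in JH1 was CYP7B1 the higher of the pair. The breed means differed by -0.47 (exact permutation test of this difference, two-sided, p = 1.0), and without JH1 the difference was 0.38. The JH pigs themselves spread from -1.19 to 1.43. The log2 ratio of ABCB11 to SLC10A1 was -1.05, -1.56 and -0.92 in the JH pigs and -0.99, -1.44 and -1.31 in the LD pigs, a difference of 0.07 (exact permutation test, two-sided, p = 0.9). The ratios of export to uptake gene overlapped. The planned ratio of CYP8B1 to CYP7A1 could not be formed.

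**Figure D4:**
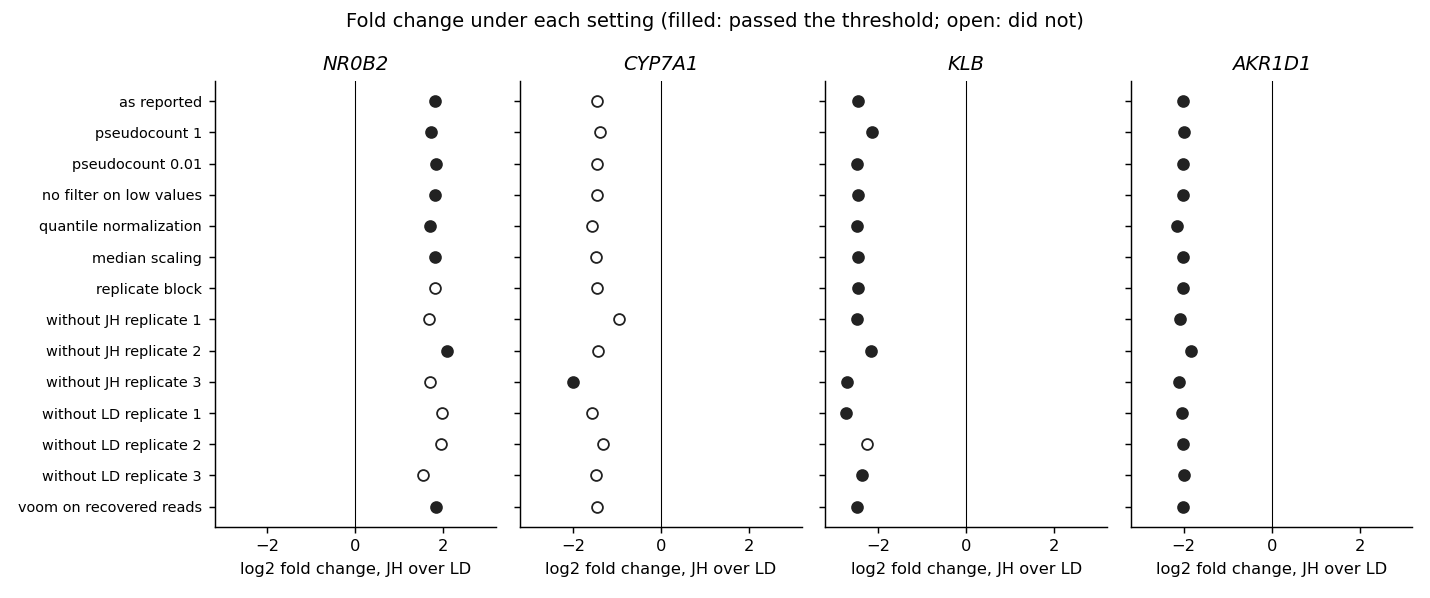
Log2 fold change of JH over LD for NR0B2, CYP7A1, KLB and AKR1D1 under the reported setting and 13 alternatives, with filled points where the threshold was passed. All points keep their side of 0, AKR1D1 is filled throughout, and NR0B2 is open in 6 of the alternatives.

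Genes of other liver cells moved with the breed too. In bulk tissue, fewer cells of a type and less RNA per cell cannot be told apart. For the counts that follow, 2.39% of all tested genes passed and 17.9% had an unadjusted p under 0.05 in limma. Of 10 bile duct markers 7 were tested, and EPCAM and ANXA4 passed with lower values in JH. The log2 fold change was below 0 in 5 of the 7 and above 0 in 2. KRT19, a defining duct marker, was at 4.71, 4.30 and 2.24 RPKM in the JH pigs and at 18.9, 13.3 and 6.84 RPKM in the LD pigs, and KRT7 was listed at 0. The summed RPKM of the bile duct list ranged from 120 to 280 in JH and from 113 to 216 in LD. CLDN4 alone was at 235, 118 and 85.3 RPKM in the JH pigs and at 70.3, 118 and 55.5 RPKM in the LD pigs. All 10 stellate and smooth muscle markers were tested, COL1A1, COL1A2, COL3A1 and LRAT passed with lower values in JH, and the median log2 fold change was -1.60. Their summed level was 97.8 to 120 RPKM in JH and 215 to 441 RPKM in LD. In limma, 0 of the 9 endothelial and 0 of the 7 macrophage and lymphocyte markers tested passed, while 2 and 1 had an unadjusted p under 0.05. On recovered reads voom called 0 in both lists. The summed level was 184 to 295 RPKM in JH and 234 to 290 RPKM in LD for the endothelial list, and 214 to 458 and 391 to 593 RPKM for the macrophage and lymphocyte list. CLEC4G alone was at 109 to 213 RPKM in JH and 135 to 195 RPKM in LD. The log2 fold change was below 0 in 8 of the 9 endothelial and 2 of the 7 macrophage and lymphocyte markers, against 47.1% of all tested genes. All 3 JH values lay below all 3 LD values in 4 and 0 of them, against 12.5% of all tested genes. Of the enterocyte and pancreas list 2 genes were tested, and ANPEP passed with lower values in JH. The other, VIL1, went the other way without passing. It was at 13.8, 9.60 and 11.3 RPKM in the JH pigs and at 9.27, 7.46 and 3.41 RPKM in the LD pigs. SI and PNLIP were listed at 0. Of these marker calls, COL1A1 was kept in all 6 fits that left out 1 library, COL3A1 in 4 and COL1A2 in 2. EPCAM, ANXA4 and LRAT were kept in 1 each, the fit without JH3, and ANPEP was lost in all 6 (limma, adjusted p from 0.0658 to 0.141). The part of these cells in the bile acid values was not tested.

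The summed level of the hepatocyte markers was 57751 to 69665 RPKM in JH and 72534 to 85805 RPKM in LD. In limma 0 of the 8 tested passed, while 4 had an unadjusted p under 0.05, against 17.9% of all tested genes. Of these 4, ALB, TF and SERPINA1 were lower and APOA1 was higher in every JH pig. Reads were recovered for 3 of the 8 (FGB, ASGR1 and TAT), and voom called 0 of these. ALB, TF, SERPINA1 and APOA1 were not among them, so voom did not test these 4. Among genes that mark the pericentral part of the lobule, GLUL passed with lower values in JH, at 53.8, 42.1 and 72.7 RPKM against 113, 194 and 135 RPKM in LD (limma, adjusted p = 0.0490). GLUL kept this call in 1 of the 6 fits that left out a library, the fit without JH3. The other 6 tested did not pass. Of these, OAT and TBX3 were higher and CYP2E1 was lower in every JH pig. Of the 9 periportal genes tested SLC7A2 passed, with lower values in JH. ARG1 was higher in every JH pig, with a log2 fold change of 1.14 (limma, adjusted p = 0.182), and the other 7 did not pass either. All 3 JH values lay below all 3 LD values in 3 of the 9 (SLC7A2, HSD17B13 and CPS1) and above them in 1. SLC7A2 was kept in 2 of the 6 fits that left out a library, without JH1 and without JH3. On recovered reads voom called 1 of 6 pericentral and 2 of 8 periportal genes. The summed level was 608 to 1638 RPKM in JH and 1746 to 2565 RPKM in LD for the pericentral list, and 915 to 2446 and 1769 to 1841 RPKM for the periportal list. CYP2E1 alone was at 1015, 910 and 328 RPKM in the JH pigs and at 2177, 1126 and 1368 RPKM in the LD pigs. The log2 fold change was above 0 in 4 and below 0 in 3 of the 7 pericentral genes tested, with a median of 0.16.

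CYP7A1 and NR0B2 are known to vary over the day, so clock genes are given beside them. In limma 0 of the 12 tested passed, with 3 at an unadjusted p under 0.05, against 17.9% of all tested genes. The log2 fold change was above 0 in 6 of the 12 and below 0 in 6, with a median of 0.01. All 3 JH values lay above all 3 LD values in 1 and below them in 2, against 10.8% and 12.5% of all tested genes. On recovered reads voom called 1, PER2. ARNTL was at 0.195, 1.44 and 1.59 RPKM in the JH pigs and at 4.57, 6.95 and 2.26 RPKM in the LD pigs, lower in every JH pig (log2 fold change -2.22, limma adjusted p = 0.132). JH1 had 1 recovered read of ARNTL, and without JH1 the log2 fold change was -1.40. PER2, whose protein acts against that of ARNTL, was higher in every JH pig with a log2 fold change of 1.32 (limma, adjusted p = 0.0586). PER1, CRY1 and NR1D2 overlapped between the breeds. Within LD, NR1D2 ranged from 2.67 RPKM in LD2 to 16.0 RPKM in LD3. The part of the clock genes in the bile acid values was not tested.

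Over the 6 libraries, among genes with a symbol not starting with LOC, the profile most like that of CYP7A1 was that of FASN. This fatty acid synthase gene had a Pearson r of 0.997 on log2(RPKM + 0.1). FASN was at 4.71, 11.6 and 55.3 RPKM in JH1, JH2 and JH3 and at 68.9, 111 and 81.9 RPKM in LD1, LD2 and LD3, so both genes were lowest in JH1 and highest in LD2. SHE and BMPR2 came next with r of 0.994 and 0.988. The profiles most like that of NR0B2 were those of C9H11orf71, PGK1 and NARS, with r of 0.991, 0.987 and 0.987. The search left out LOC rows, repeated names and names not starting with a letter, so it covered only part of the 12993 tested genes. These are the extremes of that search over 6 points that fall into 2 breeds, and they are given as a description.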

How the data were processed

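Liver mRNA of 3 JH and 3 LD pigs was grouped by the sample labels. According to the methods and the submitters' processing notes, the authors aligned filtered 50 bp single reads to Sscrofa10.2 with TopHat2 2.0.13, counted reads per gene with gfold 1.1.2 and deposited RPKM, 1 column per library. Small RNA files were not used. Library totals and whole reads were recovered from the steps of low values, for 16230 of 19614 genes above 0 (82.7%), with a tolerance of 0.02 reads plus 1e-05 of the read number. On simulated data 98.2% of resolved genes had exact reads.

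Breeds were compared with limma 3.58.1 (R 4.3.3, trend) by two-sided tests with Benjamini-Hochberg adjustment over all tested genes. The authors' DEGSeq test was not used. In simulated data of 12585 genes, limma called 117 of 200 that differed by 2 (log2) and 8 others. Figures came from Python 3.11.15 with matplotlib 3.10.9. The members and lists were chosen with earlier results of these data known. Named genes are the members, every listed gene called, the next 2 per pathway list by fold change, direct partners of the members and the 3 profiles most like CYP7A1 and NR0B2. Other names were picked after their values were seen. Of 166 list symbols, 8 were found by gene number. A further listed gene is not reported here. Alternatives were other pseudocounts, no filter, quantile and median scaling, no fold change limit, the replicate number as a block and each library left out. The voom test on recovered reads and the count by symbol alone were added after the values were seen.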

Additional observations from a re-analysis of the deposited data

How the results depend on the processing

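Leaving out 1 library gave between 79 and 406 DEGs against 310, between 0 and 1 members called, and between 1 and 5 other bile acid genes. The call among the members was CYP7A1 without JH3, and NR0B2 without JH2. The number of DEGs was 199 with a pseudocount of 0.01 and 200 with no filter. Found by symbol alone, 0 members passed. With the replicate number as a block, 253 DEGs and 0 members were called in limma (5 of 8 members had an unadjusted p under 0.05, against 22.8% of all tested genes in that fit), and NR0B2 had an adjusted p of 0.0526 from limma. The replicate number is not described as a pairing, so it entered only in this alternative. Same-numbered libraries deviated with r of -0.02, 0.05 and 0.18 across genes. Such an r cannot see a shift of a whole library. The median log2 values were 2.36 in JH1 and 2.35 in LD1, 2.42 in JH2 and 2.39 in LD2, and 2.10 in JH3 and in LD3. Whether same-numbered libraries share a batch was not tested. The block changed no other call of a bile acid gene, while the markers GLUL and LRAT had adjusted p of 0.0703 and 0.0640 from limma. The fold change of NR1H4 was -0.0129 under quantile normalization. Of 260 fold changes of single genes under an alternative, 237 kept their direction and their side of the threshold. Most of the 20 genes behind them were not called in the reported fit and stayed so. A call was lost in 19, all of them for NR0B2, ABCB4, FABP1 or KLB, and AKR1D1 lost none. BAAT was above 0 in 2 libraries, with 1 read in each if its length is the smallest that gives whole reads.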
